A study of Mus musculus with 72 samples.

Results

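The genes described here encode 56 chromatin regulators outside the Polycomb group: enzymes that write, remove or read marks on histones and DNA, and the motor proteins that move nucleosomes. They were taken from a list of gene symbols that was chosen with earlier results of these data known. Every deposited site that overlapped a gene body or the 1000 bp before the gene's start was assigned to the gene. All 56 lie among 20780 autosomal protein-coding genes of the GENCODE M21 annotation (mm10), and their 8 classes are H3K4 (7 genes), H3K36 (6), H3K9 (3) and H3K79 (1) methylation, demethylases (10), remodellers (17), acetylation (7) and DNA methylation (5). In all, 216 of 35754 called sites in 5 deposited tables lay in these genes, and 48 of the 56 had at least 1. No called site lay in Kmt2a, Kmt2b, Ehmt2, Chd3, Chd4, Smarca5, Brd1 or Dnmt3a.

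Histone H3 carrying 1 or 2 methyl groups on lysine 27 (H3K27me1, H3K27me2) was measured by CUT&RUN, in which an antibody guides a nuclease to a mark, in the nucleus accumbens, a striatal region of reward and motivation, of adult male wild-type mice. In the chronic social defeat cohort, susceptible and resilient mice (4 libraries per mark each), classed by behaviour after defeat, were set against the same 4 control libraries. In the second cohort, mice with early life stress and later subthreshold defeat (ELS_SbD, 3 libraries) were set against standard-reared, undefeated mice (Std_control, 3 libraries), so that rearing and defeat cannot be told apart. Libraries are given in 1 order throughout: susceptible 26, 29, 32 and 35, resilient 27, 30, 33 and 36, control 25, 28, 31 and 34, ELS_SbD 40, 44 and 48, and Std_control 37, 41 and 45. Whether each library is from its own mouse is not given in the labels, so a p across libraries speaks of how far these samples scatter, and that scatter can be technical. In whole tissue, a change in the number of cells of a type and a change per cell cannot be told apart.

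H3K27me1 is placed by the Polycomb methyltransferase complex, and in mammalian cells it is known for lying in the bodies of active genes, where H3K36 trimethylation by Setd2 is also found. H3K27me2 covers much of the remaining genome, and H3K27me3 marks repressed genes. Many of the regulators below cause intellectual disability or autism in humans when 1 copy is lost, among them KMT2D, NSD1, EHMT1, ARID1B, CREBBP, CHD8 and MBD5, and in neurons they act on transcription that accompanies experience.

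Sites are called here by the authors' deposited adjusted p under 0.05. In the chronic defeat tables that p is from a G-test on the summed reads of a group, which leaves out the spread between libraries, whereas the rearing table used a negative binomial test. With limma across libraries, adjusted over all windows the authors tested, 0 of the regulators' sites passed in the susceptible and resilient tables, against 11 higher and 19 lower in the rearing table. Each single-site limma p below is unadjusted. These p-values and the adjusted counts above were computed on sites already selected for a difference on the same libraries. Neither is separate support, in the rearing table as in the others. The chronic defeat cohort was the deeper one for H3K27me1, with 20.57 to 30.39 reads in an average 1000-bp bin, against 5.0 to 7.78 in the rearing cohort.

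Of the called sites, 2 in Mbd5 contained a promoter of the RefSeq table (GRCm38.p6), and both are shown because a promoter of a regulator itself lay inside a called site there. Each run gives the 250 bases before the start on the plus strand, with CG dinucleotides, the targets of DNA methylation, in capitals.
Mbd5 inner start, chr2:49245650-49245899, lower in resilient mice: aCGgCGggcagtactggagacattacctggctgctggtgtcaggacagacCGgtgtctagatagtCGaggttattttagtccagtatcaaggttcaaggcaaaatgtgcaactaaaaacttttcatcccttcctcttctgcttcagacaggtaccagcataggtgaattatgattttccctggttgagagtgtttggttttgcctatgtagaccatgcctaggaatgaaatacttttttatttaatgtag
Mbd5 first start, chr2:48949258-48949507, higher in ELS_SbD mice: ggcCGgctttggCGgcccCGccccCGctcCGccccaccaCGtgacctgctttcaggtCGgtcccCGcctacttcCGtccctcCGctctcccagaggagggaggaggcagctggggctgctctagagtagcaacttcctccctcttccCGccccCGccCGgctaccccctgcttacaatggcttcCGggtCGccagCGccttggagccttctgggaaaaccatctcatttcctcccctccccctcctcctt
The inner promoter holds 4 CG dinucleotides and the first promoter 16, against a median of 6 over 32851 RefSeq promoters of the same length, read on both strands alike since CG is its own reverse complement. As many as 62.2% of all these promoters hold 4 or more, 25.4% hold 16 or more and 92.1% hold at least 1. RefSeq promoters were found for 39 of the 56 genes.

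The regulators were chosen with earlier results known, so their shares of genes with a site describe the list and do not test enrichment. In susceptible mice, H3K27me1 sites lay in 40 of 56 regulators (71.4%), against 20.9% of all autosomal protein-coding genes. Of their 112 sites, 69 were lower (61.6%, against 49.7% of all called sites and 48.4% of those in autosomal protein-coding genes) and 43 were higher (against 50.3% of all called sites). By gene, 26 had only lower sites, 6 only higher and 8 both, and the groups' libraries did not overlap at 65 sites (58%, against 52.8% of all called sites). Lower sites had a median log2 change of -0.44 and higher sites one of 0.38, within a range of -0.64 to 0.64.

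Resilient mice had sites in 34 regulators (60.7%, against 15.5% of all genes), 53 of 72 of them lower (73.6%, against 48.3% of all called sites and 51.2% of those in genes) and 19 higher (against 51.7% of all called sites). By limma's unadjusted p under 0.05, the higher sites numbered 12 without control library 28. Only lower sites were found in 20 genes, only higher sites in 4 and both in 10, with a median log2 change of -0.43 at lower and 0.41 at higher sites. The groups did not overlap at 37 of the 72 sites (51.4%, against 54.7%). The susceptible and resilient comparisons share their control libraries, so their values are given side by side, and susceptible and resilient libraries were not tested against each other.

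ELS_SbD mice had sites in 19 regulators (33.9%, against 13.6% of all genes). Of 31 sites 19 were lower (61.3%, against 33% of all called sites and 33.4% of those in genes) and 12 higher (against 67% of all called sites), with 11 genes only lower, 6 only higher and 2 both. Median log2 changes were -0.77 at lower and 0.80 at higher sites, and the groups did not overlap at any of the 31 (100%, against 99%). Over the IgG background, all called sites of this comparison had a median enrichment of 1.14 in ELS_SbD and 0.82 in Std_control libraries. At the regulators' sites the medians were 1.39 and 1.76, and 4 of the 31 lay below IgG in both groups. Calls of H3K27me2 were rare: 1 site in susceptible mice (1.79% of the regulators, against 0.770% of all genes) and 0 in resilient mice (against 1.22%).

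**Figure D1:**
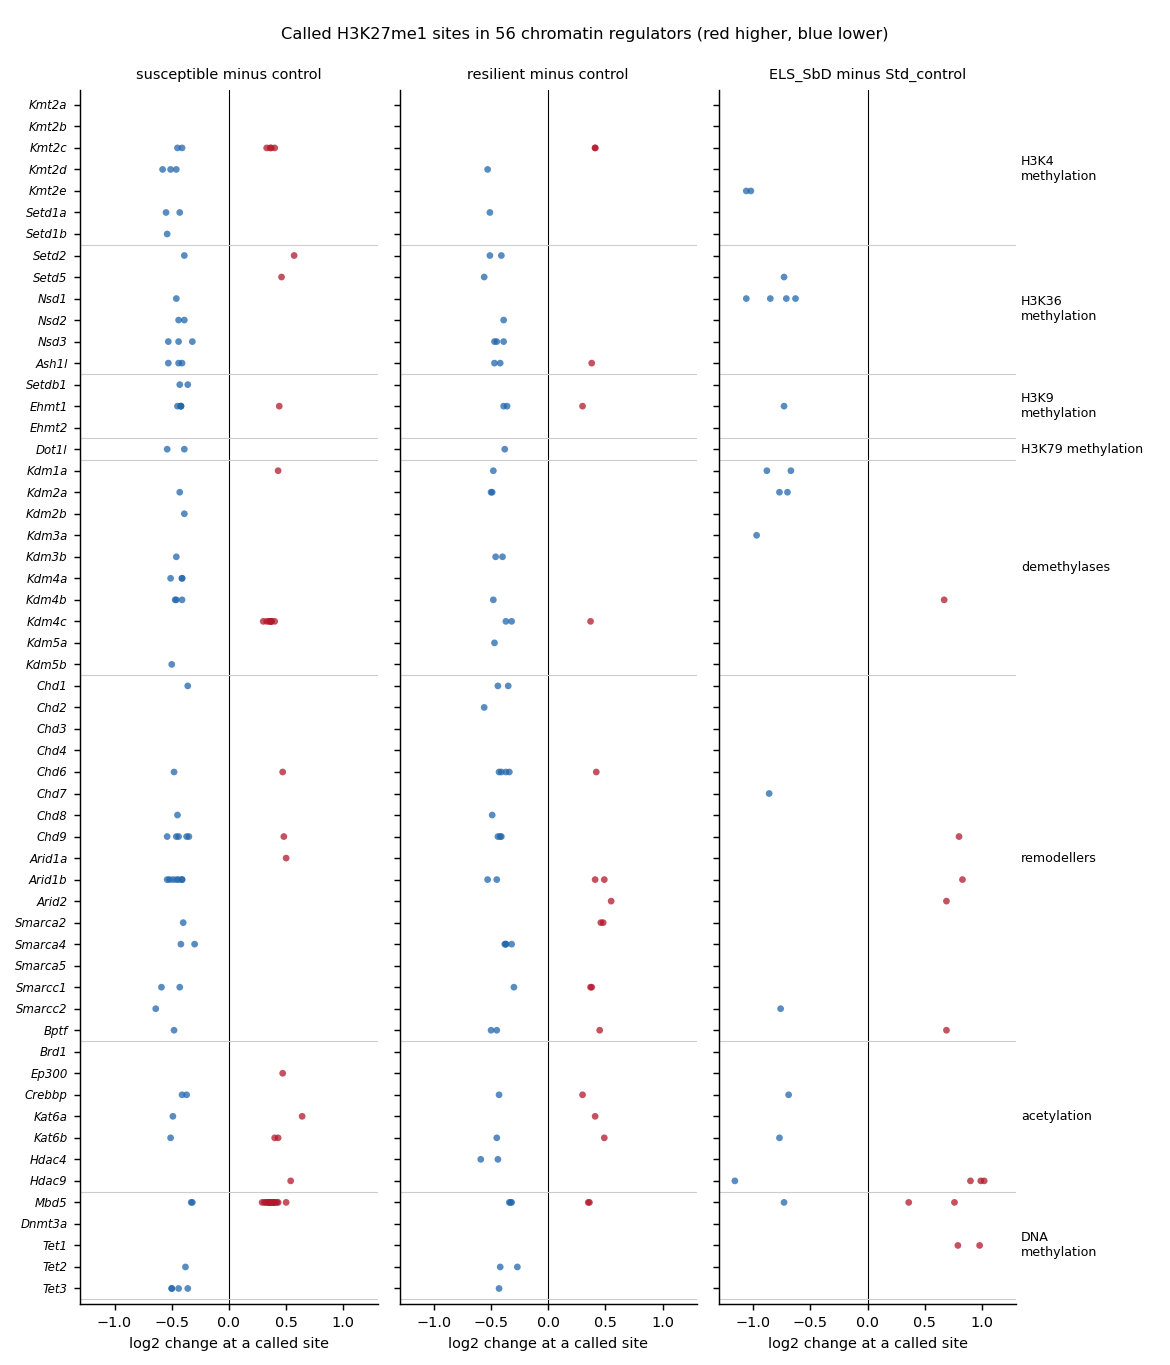
Log2 change (susceptible, resilient or ELS_SbD over their controls) at each called H3K27me1 site of the 56 regulators, with 1 line per gene and the classes named at the right. Lower sites (blue) outnumber higher ones (red), 69 to 43, 53 to 19 and 19 to 12 from left to right, and the higher sites of the susceptible panel gather in Mbd5 and Kdm4c.

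Gene length and base composition moved with these counts. The regulators are long genes, with a median of 82.6 kb (15.6 kb for Ehmt2, 870 kb for Hdac9) against 17.6 kb for all genes, and a longer gene offers more windows. Among genes of 50 to 100 kb, 17 of 20 regulators (85%) had a site in susceptible mice, against 38.5% of all genes of that length, 15 (75%) against 32.4% in resilient mice and 6 (30%) against 25.3% in ELS_SbD mice. From 100 to 200 kb the shares were 68.8% against 41.7%, 68.8% against 37.3%, and 43.8% against 42.9% in the same order, and at 200 kb and over 83.3% against 57.2%, 83.3% against 51.5%, and 66.7% against 75.1%. From 20 to 50 kb they were 58.3% against 27.1%, 25% against 19%, and 16.7% against 11.2%, and neither of the 2 shorter regulators had a site. Per megabase of gene, the regulators held 17.1 sites against 10.1 in susceptible, 11 against 5.77 in resilient and 4.73 against 4.14 in ELS_SbD mice.

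In susceptible mice direction moved with gene length and with base composition. At 20 to 50, 50 to 100, 100 to 200, and 200 kb and over, the regulators had 100%, 76.9%, 61.3% and 39% lower sites. All genes of those lengths had 80.9%, 57%, 42.3% and 17.9%. The resilient shares were 100%, 92%, 60.7% and 62.5%, against 65.5%, 57.7%, 49.3% and 34.3%. In ELS_SbD mice they were 100%, 77.8%, 72.7% and 22.2%, against 33.7%, 38%, 34.1% and 32.3%. Base composition was measured as the GC share of a gene's longest coding transcript (median 49.8% in the regulators, 49.4% in all genes). In susceptible mice the share of lower sites among regulators was 36.2%, 62.1%, 95% and 92.9% in 4 rising GC classes above the lowest, which held 2 sites. All genes of the same classes had 39.8%, 56.8%, 83.3% and 93.9%. In resilient mice the regulators had 80%, 57.7%, 75% and 100% lower sites, against 49.6%, 51.9%, 59.8% and 69.2% of all genes' sites. In ELS_SbD mice the second class, with 18 of the 31 sites, had 50% lower sites in the regulators, against 39.2% in all genes. The third and the fourth class, with 6 sites each, had 83.3% in the regulators, against 29.2% and 19% in all genes, and the 1 site of the fifth was higher, where all genes had 17.4% lower. The part of length or base composition in the counts was not tested.

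**Figure D2:**
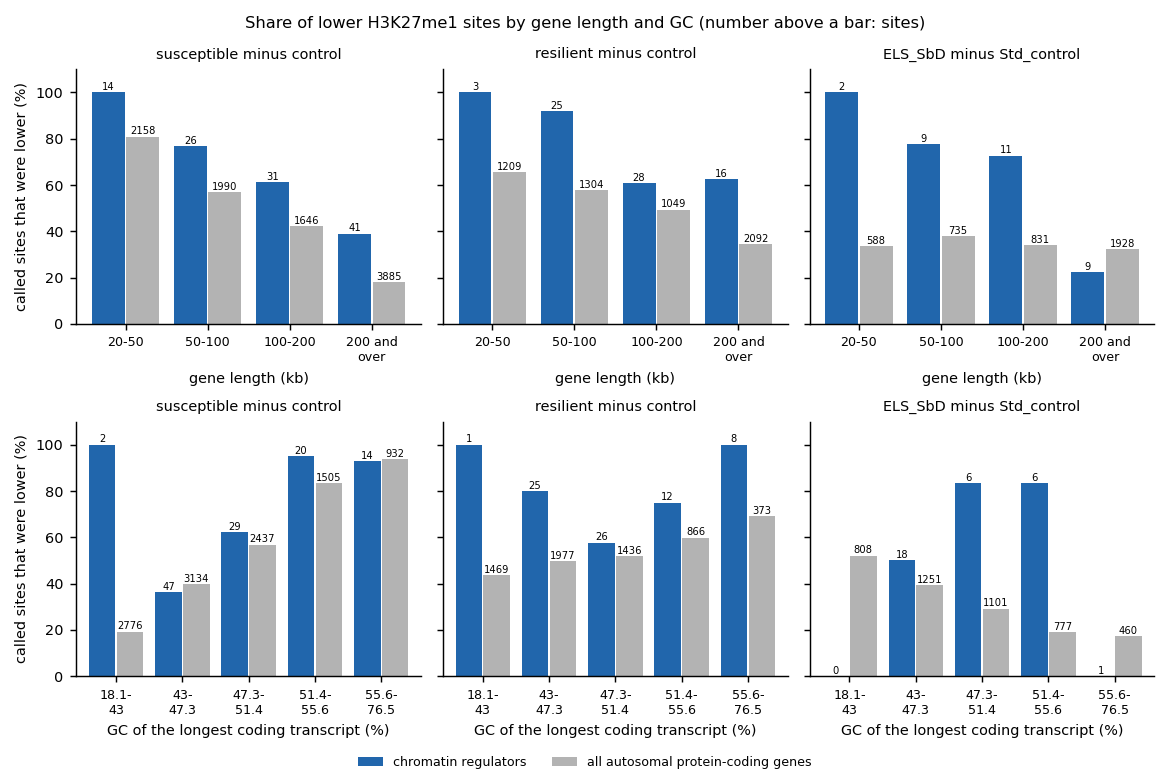
Percent of called H3K27me1 sites that were lower, by gene length in kb (top) and by transcript GC in percent (bottom), for the regulators (blue) and all autosomal protein-coding genes (grey); the number of sites stands above each bar. In susceptible mice both sets run from mostly higher to mostly lower sites from the second GC class on, with 36.2% and 39.8% lower in the second GC class and 92.9% and 93.9% in the last; in ELS_SbD mice the second class, which has most of the regulators' sites, stands at 50% against 39.2%.

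Exons were touched by 34 of the 112 susceptible sites. Split by direction, 28 of 69 lower ones (40.6%) and 6 of 43 higher ones (14%) did, and in resilient mice the shares were 43.4% of lower and 26.3% of higher sites. In ELS_SbD mice the shares were 47.4% of lower and 16.7% of higher sites. The difference was not tested, since sites of 1 gene share its libraries and composition. Of the 43 higher susceptible sites, 19 lay in Mbd5 and 8 in Kdm4c. The exon share over all called sites was not computed, so the split cannot be assigned to the regulators in particular. Within 1000 bp of an annotated start lay 7 of the sites in the 3 H3K27me1 comparisons. They were those of Kdm4b, Kmt2c and Nsd2 in susceptible, Crebbp, Kdm2a and Mbd5 in resilient and Mbd5 in ELS_SbD mice. The share of all called sites near a start was not computed either.

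The H3K4 methyltransferases put mono-, di- and trimethyl marks on enhancers and promoters. In susceptible, resilient and ELS_SbD mice 20.9%, 15.5% and 13.6% of all genes had a site. Of all called sites, 49.7%, 48.3% and 33% were lower. By gene length, the susceptible share of all genes was 27.1% at 20 to 50 kb and 38.5% at 50 to 100 kb. It was 41.7% at 100 to 200 kb and 57.2% at 200 kb and over. Every class count from here on is to be read beside these shares. In susceptible mice 4 of 7 had sites (57.1%), 8 lower and 4 higher (66.7% lower). Setd1a, the catalytic subunit of a complex that trimethylates H3K4 and a risk gene for schizophrenia in humans, held 75.1, 72.2, 85.9 and 82.1 normalised reads in susceptible libraries, against 117, 122, 109.9 and 113 in control libraries (chr7:127794601-127795900, exon). At the Setd1a site every susceptible library lay below every control library, a log2 change of -0.55 (authors' adjusted p = 3.48e-05). That was a mean of 78.8 ± 6.28 over 4 susceptible libraries, against 115 ± 5.32 over 4 control libraries (± SD), and a limma log2 change of -0.55 ± 0.14 (SE, limma, unadjusted p = 0.000515). Kmt2d, which monomethylates H3K4 at enhancers, had 3 lower sites and held 91.9, 64.1, 99.2 and 117 normalised reads in susceptible libraries, against 126, 128, 149 and 109 in control libraries (chr15:98840501-98842000, exon). Susceptible library 35 fell inside the control range at this Kmt2d site, which gave a log2 change of -0.46 (authors' adjusted p = 0.000235). Its close relative Kmt2c was split, with 4 higher and 2 lower sites, and held 73.1, 57.8, 75 and 87.5 normalised reads in susceptible libraries, against 85.5, 112, 96 and 108 in control libraries (chr5:25300201-25301200, exon) at a lower site 126 bp from an inner start. This Kmt2c site had overlapping groups through susceptible library 35, with a log2 change of -0.45 (authors' adjusted p = 0.00142). Setd1a had 2 lower sites in all and Setd1b 1.

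In resilient mice, 3 genes of the class had sites. Setd1a again had the leading site, with 108, 117, 93.1 and 102 normalised reads in resilient libraries, against 124, 147, 152 and 176 in control libraries (chr7:127789201-127790900, intron). At the Setd1a site every resilient library lay below every control library, a log2 change of -0.51 (authors' adjusted p = 5.3e-05). The Setd1a sites also overlap the annotated gene Gm49388, from which they cannot be separated. Kmt2d held 64.7, 67.6, 52.9 and 54.9 normalised reads in resilient libraries, against 95.2, 79.4, 86.1 and 85.4 in control libraries (chr15:98858001-98859100, exon). All resilient values at the Kmt2d site were below all control values, with a log2 change of -0.53 (authors' adjusted p = 0.00158). Kmt2c had 2 higher sites, both at a log2 change of 0.41. In ELS_SbD mice only Kmt2e, a SET-domain protein that reads H3K4 trimethylation, had sites, 2 lower ones, and the first held 32.1, 30.8 and 28.1 normalised reads in ELS_SbD libraries, against 56.3, 74.8 and 53.2 in Std_control libraries (chr5:23482401-23483800, exon with UTR). At the Kmt2e site every ELS_SbD library lay below every Std_control library, a log2 change of -1.02 (authors' adjusted p = 0.00601). Both groups lay below the IgG background there, at 0.62 and 0.90 times, and at the second Kmt2e site, at 0.27 and 0.71 times.

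All 6 genes of the H3K36 class had sites in susceptible mice, 10 lower and 2 higher (83.3% lower, against 49.7% of all called sites). The genes of this class are 76.1 to 128.8 kb long. Of all genes, 38.5% of those of 50 to 100 kb and 41.7% of those of 100 to 200 kb had a site. Ash1l, which dimethylates H3K36 and opposes Polycomb repression, had 3 lower sites, and its first held 103, 100.2, 126 and 83.9 normalised reads in susceptible libraries, against 148, 151, 147 and 148 in control libraries (chr3:89051001-89052800, exon). No susceptible library at this Ash1l site reached the control range, and the site had a log2 change of -0.53 (authors' adjusted p = 5.24e-06). The limma log2 change was -0.54 ± 0.14 (SE, limma, unadjusted p = 0.000419), with a mean of 103 ± 17.3 over 4 susceptible libraries, against 149 ± 1.62 over 4 control libraries (± SD). Setd2, the enzyme of H3K36 trimethylation in gene bodies, held 150.2, 131, 159 and 149 normalised reads in susceptible libraries, against 177, 202, 188 and 203 in control libraries (chr9:110606501-110608100, intron). At the Setd2 site every susceptible library lay below every control library, a log2 change of -0.39 (authors' adjusted p = 0.000115). A second Setd2 site was higher, at a log2 change of 0.57. Nsd2, an H3K36 dimethyltransferase, held 93.8, 84.9, 103 and 97.6 normalised reads in susceptible libraries, against 118, 137, 129 and 129.6 in control libraries (chr5:33861201-33862200, intron) at a site 132 bp from an inner start. All susceptible values at the Nsd2 site were below all control values, with a log2 change of -0.44 (authors' adjusted p = 0.000471). Setd5, a SET-domain protein whose loss causes intellectual disability in humans, held 95.8, 98.4, 78.7 and 80.2 normalised reads in susceptible libraries, against 69, 56.5, 70.4 and 61.2 in control libraries (chr6:113095901-113096900, intron). For Setd5 the susceptible and control groups did not overlap at this site, and the susceptible libraries were higher, with a log2 change of 0.46 (authors' adjusted p = 0.00237). Nsd3 had 3 lower sites and Nsd1 1.

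Resilient mice had 9 lower sites and 1 higher in 5 genes of the class. Nsd3, a further dimethyltransferase, held 92.8, 61, 85.3 and 79 normalised reads in resilient libraries, against 91.5, 113, 118 and 119 in control libraries (chr8:25655301-25656400, intron). At the Nsd3 site, resilient library 27 lay among the control values, and the site had a log2 change of -0.47 (authors' adjusted p = 0.00133). The single higher site was in Ash1l, which held 186, 133, 168 and 126 normalised reads in resilient libraries, against 98.1, 128, 129 and 115 in control libraries (chr3:89046501-89047500, intron). Resilient library 36 fell inside the control range at this Ash1l site, which gave a log2 change of 0.38 (authors' adjusted p = 0.0018). By limma, the Ash1l log2 change, 0.37 over all libraries, was 0.27 without resilient library 27 and 0.29 without control library 25, where the unadjusted p no longer passed 0.05. Its 2 other sites were lower. Setd5 held 45.1, 45.5, 53.9 and 55.9 normalised reads in resilient libraries, against 74.5, 68.7, 73.1 and 79 in control libraries (chr6:113125501-113126500, exon). At the Setd5 site every resilient library lay below every control library, a log2 change of -0.56 (authors' adjusted p = 0.00201).

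In ELS_SbD mice Nsd1, whose loss causes Sotos syndrome in humans, had 4 lower sites and Setd5 1. The Nsd1 site at chr13:55308901-55310200 lay below the IgG background in both groups, at 0.40 and 0.91 times. The one at chr13:55258501-55259500 lay at 0.96 times in ELS_SbD and 1.92 times in Std_control libraries. The first Nsd1 site held 88.3, 84 and 86.3 normalised reads in ELS_SbD libraries, against 145, 126 and 128 in Std_control libraries (chr13:55268201-55269700, exon). All ELS_SbD values at the Nsd1 site were below all Std_control values, with a log2 change of -0.63 (authors' adjusted p = 5.38e-07). The limma log2 change was -0.62 ± 0.14 (SE, limma, unadjusted p = 9.78e-06). Setd5 held 28.7, 41.1 and 50.7 normalised reads in ELS_SbD libraries, against 66.2, 62.2 and 71.5 in Std_control libraries (chr6:113125901-113126900, exon). For Setd5 the ELS_SbD and Std_control groups did not overlap at this site, and the ELS_SbD libraries were lower, with a log2 change of -0.73 (authors' adjusted p = 0.0132). That site shares sequence with the Setd5 site of the resilient comparison, which comes from the other cohort and has no library in common with it. The log2 change was -0.73 in ELS_SbD mice and -0.56 in resilient mice.

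H3K9 methyltransferases, which mark silent chromatin, had 6 lower sites and 1 higher in susceptible mice. Ehmt1, which dimethylates H3K9 with Ehmt2 and causes Kleefstra syndrome in humans when 1 copy is lost, had 4 of the lower sites and the higher one. Its first site held 77, 85.8, 111 and 129 normalised reads in susceptible libraries, against 137, 115, 155 and 134 in control libraries (chr2:24856901-24858100, intron). This Ehmt1 site had overlapping groups through susceptible library 35, with a log2 change of -0.42 (authors' adjusted p = 0.000513). By limma, the Ehmt1 log2 change, -0.44 over all libraries, was -0.32 without susceptible library 26, where the unadjusted p no longer passed 0.05. The other 2 lower sites were in Setdb1, the enzyme that trimethylates H3K9 at repeats, which held 139, 125, 163 and 111 normalised reads in susceptible libraries, against 211, 159, 154 and 169.5 in control libraries (chr3:95340301-95341400, exon). At the Setdb1 site, susceptible library 32 lay among the control values, and the site had a log2 change of -0.36 (authors' adjusted p = 0.00064). By limma, the Setdb1 log2 change, -0.36 over all libraries, was -0.28 without susceptible library 35 and -0.27 without control library 25, where the unadjusted p no longer passed 0.05.

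In resilient mice only Ehmt1 of this class had sites, 2 lower and 1 higher, and the first held 97, 87.6, 96 and 111 normalised reads in resilient libraries, against 122, 113, 174 and 104 in control libraries (chr2:24840401-24841600, exon with UTR). Resilient library 36 fell inside the control range at this Ehmt1 site, which gave a log2 change of -0.39 (authors' adjusted p = 0.00337). By limma, the Ehmt1 log2 change, -0.36 over all libraries, was -0.31 without resilient library 30 and -0.20 without control library 31, where the unadjusted p no longer passed 0.05. In ELS_SbD mice Ehmt1 had 1 lower site, with 80.3, 75.6 and 69 normalised reads in ELS_SbD libraries, against 136, 141 and 95 in Std_control libraries (chr2:24819501-24820800, intron). No ELS_SbD library at this Ehmt1 site reached the Std_control range, and the site had a log2 change of -0.73 (authors' adjusted p = 0.00735). Dot1l, the H3K79 methyltransferase, had 2 lower sites in susceptible mice and held 108, 106, 119.8 and 95.8 normalised reads in susceptible libraries, against 138, 124, 174 and 127 in control libraries (chr10:80763301-80764600, intron). All susceptible values at the Dot1l site were below all control values, with a log2 change of -0.39 (authors' adjusted p = 0.00093). By limma, the Dot1l log2 change, -0.38 over all libraries, was -0.28 without control library 31, where the unadjusted p no longer passed 0.05. An overlapping window in resilient mice held 128, 85.3, 106 and 91.5 normalised reads in resilient libraries, against 133, 119.7, 157 and 125 in control libraries (chr10:80763201-80764400, intron). This Dot1l site had overlapping groups through resilient library 27, with a log2 change of -0.38 (authors' adjusted p = 0.00314). No Dot1l site was called in ELS_SbD mice.

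The genes of the 10 demethylases, which take methyl groups off lysines, are 43.1 to 163.4 kb long. In susceptible mice 8 of them had sites (80%, against 20.9% of all genes of any length). Of these sites 10 were lower and 9 higher (52.6% lower, against 49.7% of all called sites). The higher sites came almost wholly from Kdm4c, an H3K9 and H3K36 demethylase, which had 8 higher sites and 0 lower, spread from 32 to 151.8 kb after its start. The first held 285, 347, 260.1 and 252 normalised reads in susceptible libraries, against 217, 220.1, 228 and 222 in control libraries (chr4:74321801-74323800, intron). For Kdm4c the susceptible and control groups did not overlap at this site, and the susceptible libraries were higher, with a log2 change of 0.37 (authors' adjusted p = 6.05e-06). That was a mean of 286 ± 43 over 4 susceptible libraries, against 222 ± 4.76 over 4 control libraries (± SD), and a limma log2 change of 0.35 ± 0.12 (SE, limma, unadjusted p = 0.00441). At 3 of the 8 higher Kdm4c sites the groups did not overlap, and at the other 5 they did. Over all called sites the groups did not overlap at 52.8%. Its relatives Kdm4a and Kdm4b had 3 lower sites each. Kdm4a held 104, 93.9, 122 and 142 normalised reads in susceptible libraries, against 155, 128, 175 and 154 in control libraries (chr4:118147201-118148900, exon). At the Kdm4a site, susceptible library 35 lay among the control values, and the site had a log2 change of -0.41 (authors' adjusted p = 0.000353). Kdm4b held 83, 74, 129 and 58.4 normalised reads in susceptible libraries, against 102, 130.2, 117 and 109 in control libraries (chr17:56392301-56393500, intron), 420 bp from an inner start. Susceptible library 32 fell inside the control range at this Kdm4b site, which gave a log2 change of -0.41 (authors' adjusted p = 0.00175). By limma, the Kdm4b log2 change, -0.46 over all libraries, was -0.30 without susceptible library 35, where the unadjusted p no longer passed 0.05.

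Kdm2a, an H3K36 demethylase that binds unmethylated CG islands, held 87.9, 88.5, 98 and 84.8 normalised reads in susceptible libraries, against 105, 119.8, 131 and 129.6 in control libraries (chr19:4342101-4343500, exon) in the same comparison. All susceptible values at the Kdm2a site were below all control values, with a log2 change of -0.43 (authors' adjusted p = 0.000738). Kdm1a, which removes mono- and dimethylation from H3K4, had 1 higher site, with 104, 101, 113 and 94.8 normalised reads in susceptible libraries, against 77.2, 73.7, 85.3 and 70.1 in control libraries (chr4:136580801-136581900, intron). For Kdm1a the susceptible and control groups did not overlap at this site, and the susceptible libraries were higher, with a log2 change of 0.43 (authors' adjusted p = 0.00208). Single lower sites lay in Kdm2b, Kdm3b and Kdm5b.

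Resilient mice had 9 lower sites and 1 higher in 6 demethylase genes. Kdm5a, an H3K4 demethylase, held 83.4, 121, 89.2 and 98.3 normalised reads in resilient libraries, against 118, 156, 142 and 127 in control libraries (chr6:120386601-120388300, exon). This Kdm5a site had overlapping groups through resilient library 30, with a log2 change of -0.47 (authors' adjusted p = 0.000359). Kdm3b, which acts on H3K9, had 2 lower sites and held 92.8, 103, 86.2 and 96.3 normalised reads in resilient libraries, against 119.8, 123, 150.5 and 126 in control libraries (chr18:34813801-34815100, intron). At the Kdm3b site every resilient library lay below every control library, a log2 change of -0.46 (authors' adjusted p = 0.000707). Kdm1a held 68.1, 73.2, 76.4 and 76.1 normalised reads in resilient libraries, against 100, 139, 82.9 and 89 in control libraries (chr4:136578701-136579800, intron). All resilient values at the Kdm1a site were below all control values, with a log2 change of -0.48 (authors' adjusted p = 0.00152). By limma, the Kdm1a log2 change, -0.45 over all libraries, was -0.30 without control library 28, where the unadjusted p no longer passed 0.05. Kdm4b held 51.1, 52.1, 89.2 and 49.1 normalised reads in resilient libraries, against 91.5, 71.1, 105 and 69.95 in control libraries (chr17:56365601-56366600, intron). At the Kdm4b site, resilient library 33 lay among the control values, and the site had a log2 change of -0.48 (authors' adjusted p = 0.00362). Library 33 stood apart there from the other resilient libraries. Kdm2a had 2 lower sites, the first with 61.3, 47.7, 51.9 and 63.6 normalised reads in resilient libraries, against 71.7, 91.3, 84 and 69.95 in control libraries (chr19:4386601-4387600, intron). No resilient library at this Kdm2a site reached the control range, and the site had a log2 change of -0.50 (authors' adjusted p = 0.00368). The second, at an inner start, held 57.9, 54.3, 48 and 71.3 normalised reads in resilient libraries, against 93.3, 65.2, 77.4 and 88.1 in control libraries (chr19:4362401-4363400, exon). Resilient library 36 fell inside the control range at this Kdm2a site, which gave a log2 change of -0.49 (authors' adjusted p = 0.00398). The higher site of the class was in Kdm4c, at a log2 change of 0.37, beside 2 lower ones.

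In ELS_SbD mice 5 of 6 demethylase sites were lower. Kdm2a led with 82.6, 109 and 85.2 normalised reads in ELS_SbD libraries, against 147, 155 and 149 in Std_control libraries (chr19:4357501-4359000, intron). At the Kdm2a site every ELS_SbD library lay below every Std_control library, a log2 change of -0.70 (authors' adjusted p = 5.52e-07). The limma log2 change was -0.71 ± 0.13 (SE, limma, unadjusted p = 1.97e-07). A second lower Kdm2a site, at -0.77, shares sequence with the susceptible Kdm2a site at -0.43. Kdm1a had 2 lower sites and held 60.8, 59.7 and 60.4 normalised reads in ELS_SbD libraries, against 103, 95.2 and 88.9 in Std_control libraries (chr4:136562401-136563400, intron) at the first. All ELS_SbD values at the Kdm1a site were below all Std_control values, with a log2 change of -0.67 (authors' adjusted p = 0.00297). The exception was Kdm4b, higher with 138, 127 and 173 normalised reads in ELS_SbD libraries, against 83, 99.1 and 93.3 in Std_control libraries (chr17:56339801-56341100, intron). For Kdm4b the ELS_SbD and Std_control groups did not overlap at this site, and the ELS_SbD libraries were higher, with a log2 change of 0.67 (authors' adjusted p = 0.00135). Kdm3a had 1 lower site.

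**Figure D3:**
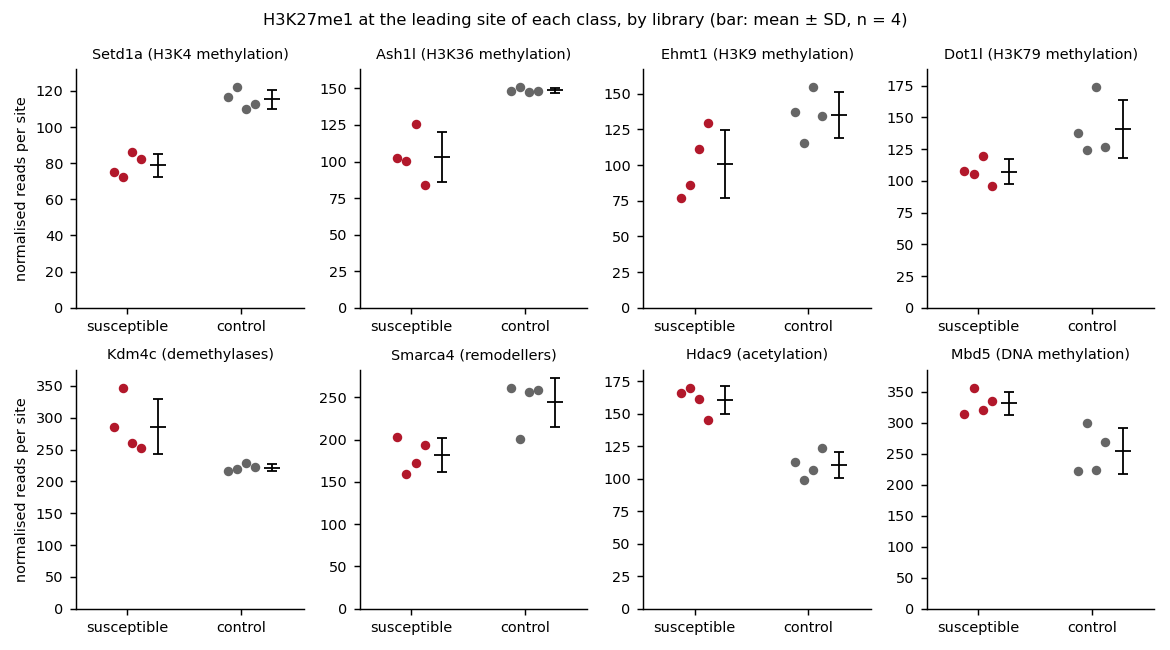
H3K27me1 in normalised reads per site at the leading site of each class, for the 4 susceptible libraries (red, left) and the 4 control libraries (grey, right), with mean and SD. Kdm4c, Hdac9 and Mbd5 are higher in susceptible libraries and the other 5 genes lower; the groups overlap at Ehmt1 and Smarca4.

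The genes of the remodellers, motor proteins and subunits that slide or evict nucleosomes, are 26.1 to 353.3 kb long. In susceptible mice 11 of 17 had sites (64.7%, against 20.9% of all genes of any length). Of these sites 22 were lower and 3 higher (88% lower, against 49.7% of all called sites). Smarca4, the BRG1 motor of the BAF complex, held 204, 159.8, 172 and 194 normalised reads in susceptible libraries, against 261, 200.5, 256 and 259 in control libraries (chr9:21666201-21668200, exon). This Smarca4 site had overlapping groups through susceptible library 26, with a log2 change of -0.42 (authors' adjusted p = 1.64e-06). That was a mean of 182 ± 20.1 over 4 susceptible libraries, against 244 ± 29.2 over 4 control libraries (± SD), and a limma log2 change of -0.42 ± 0.12 (SE, limma, unadjusted p = 0.00165). Arid1b, a BAF subunit whose loss causes Coffin-Siris syndrome in humans, had 7 lower sites and 0 higher, from 40.1 to 312.1 kb after its start. The first held 105, 116, 121 and 114 normalised reads in susceptible libraries, against 175, 142, 157 and 166 in control libraries (chr17:5135701-5137500, intron). At the Arid1b site every susceptible library lay below every control library, a log2 change of -0.49 (authors' adjusted p = 1.17e-05). The groups did not overlap at any of the 7, against 52.8% of all called sites. These 7 sites come from 1 gene and the same libraries and are not separate evidence. Chd9, a chromodomain motor, had 5 lower sites and 1 higher, and held 81, 86.7, 126 and 93 normalised reads in susceptible libraries, against 113, 145, 147 and 128 in control libraries (chr8:90872301-90873500, intron). At the Chd9 site, susceptible library 32 lay among the control values, and the site had a log2 change of -0.46 (authors' adjusted p = 0.000159). Bptf, the reader subunit of the NURF complex, held 49.4, 49.7, 81.1 and 53.8 normalised reads in susceptible libraries, against 71.7, 81.8, 97.1 and 75.5 in control libraries (chr11:107059801-107060800, exon). Susceptible library 32 fell inside the control range at this Bptf site, which gave a log2 change of -0.48 (authors' adjusted p = 0.00235). Library 32 stood apart from the other susceptible libraries there. Single higher sites were in Arid1a, Chd6 and Chd9.

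Resilient mice had 20 lower and 9 higher sites in 11 remodeller genes. Smarca2, the BRM motor that takes the place of Smarca4 in some BAF complexes, had 2 higher sites, the first with 169, 156, 137 and 127 normalised reads in resilient libraries, against 96.2, 107, 121 and 104 in control libraries (chr19:26633401-26635000, intron). All resilient values at the Smarca2 site were above all control values, with a log2 change of 0.46 (authors' adjusted p = 0.000266). Smarca4 had 4 lower sites, at log2 changes of -0.38 to -0.32. Arid1b had 2 lower and 2 higher sites and held 118, 95.3, 129 and 104 normalised reads in resilient libraries, against 146, 172, 181 and 113 in control libraries (chr17:5230901-5232400, intron). This Arid1b site had overlapping groups through resilient libraries 27 and 33, with a log2 change of -0.45 (authors' adjusted p = 0.000269). Chd9 had 3 lower sites, the first with 121, 104, 137 and 127 normalised reads in resilient libraries, against 142, 171, 185 and 154 in control libraries (chr8:90871901-90873400, exon). No resilient library at this Chd9 site reached the control range, and the site had a log2 change of -0.42 (authors' adjusted p = 0.000507). Bptf held 107, 93.1, 99 and 79.96 normalised reads in resilient libraries, against 163, 127, 108 and 122 in control libraries (chr11:107112401-107113700, intron). At the Bptf site every resilient library lay below every control library, a log2 change of -0.45 (authors' adjusted p = 0.000772). Chd6 had 4 lower sites and 1 higher, Smarcc1 1 lower and 2 higher, and Chd1 2 lower.

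In ELS_SbD mice, 4 of 6 remodeller sites were higher, each in a gene of its own. Arid2, a subunit of the PBAF form of the complex, held 109, 102 and 90.6 normalised reads in ELS_SbD libraries, against 55.3, 66.1 and 65.4 in Std_control libraries (chr15:96354101-96355200, intron). Each ELS_SbD library at this Arid2 site lay above the Std_control range, and the site had a log2 change of 0.69 (authors' adjusted p = 0.00104). Chd9 held 57.3, 61.6 and 64.7 normalised reads in ELS_SbD libraries, against 38.5, 30.1 and 36.6 in Std_control libraries (chr8:90854901-90855900, intron). At the Chd9 site every ELS_SbD library lay above every Std_control library, a log2 change of 0.80 (authors' adjusted p = 0.00816). Bptf held 72.2, 104 and 107 normalised reads in ELS_SbD libraries, against 59.3, 57.3 and 58.4 in Std_control libraries (chr11:107123601-107124600, intron). All ELS_SbD values at the Bptf site were above all Std_control values, with a log2 change of 0.69 (authors' adjusted p = 0.00832). Arid1b held 72.2, 66.2 and 72.3 normalised reads in ELS_SbD libraries, against 40.5, 30.1 and 48 in Std_control libraries (chr17:5043801-5044800, intron). For Arid1b the ELS_SbD and Std_control groups did not overlap at this site, and the ELS_SbD libraries were higher, with a log2 change of 0.83 (authors' adjusted p = 0.0109). The lower sites were in Chd7 and Smarcc2, at -0.86 and -0.76.

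Acetyltransferases open chromatin and histone deacetylases close it. Their genes are 47.2 to 869.5 kb long. The class was mixed in susceptible mice, with sites in 5 of 7 genes (71.4%, against 20.9% of all genes of any length). Of these sites 5 were higher and 4 lower (44.4% lower, against 49.7% of all called sites). Hdac9, a class IIa deacetylase and the longest of the regulators, held 166, 169.8, 161 and 145 normalised reads in susceptible libraries, against 113, 99.1, 107 and 123 in control libraries (chr12:34575301-34577400, intron). Each susceptible library at this Hdac9 site lay above the control range, and the site had a log2 change of 0.54 (authors' adjusted p = 1.19e-06). That was a mean of 160.4 ± 10.9 over 4 susceptible libraries, against 111 ± 10.3 over 4 control libraries (± SD), and a limma log2 change of 0.53 ± 0.13 (SE, limma, unadjusted p = 0.000244). Kat6a, a histone H3 acetyltransferase, held 66.2, 66.8, 82.3 and 71.1 normalised reads in susceptible libraries, against 40.5, 44.9, 49.1 and 49.7 in control libraries (chr8:22889501-22890500, intron) at its higher site and had 1 lower site as well. At the Kat6a site every susceptible library lay above every control library, a log2 change of 0.64 (authors' adjusted p = 0.000235). Kat6b, its close relative, had 2 higher sites and 1 lower, and held 128, 128, 155 and 133 normalised reads in susceptible libraries, against 114, 77.2, 118 and 95 in control libraries (chr14:21552501-21554000, intron). All susceptible values at the Kat6b site were above all control values, with a log2 change of 0.43 (authors' adjusted p = 0.000405). Crebbp, the CREB-binding coactivator that acetylates H3K27, had 2 lower sites and held 97.8, 120.1, 116 and 105 normalised reads in susceptible libraries, against 132, 158, 149 and 143 in control libraries (chr16:4122401-4123600, intron). For Crebbp the susceptible and control groups did not overlap at this site, and the susceptible libraries were lower, with a log2 change of -0.41 (authors' adjusted p = 0.000478). Ep300, its relative, had 1 higher site.

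In resilient mice the class had 4 lower and 3 higher sites. Hdac4, a class IIa deacetylase that shuttles out of neuronal nuclei with activity, had 2 lower sites and held 43.4, 41, 52.9 and 54 normalised reads in resilient libraries, against 69.8, 65.2, 84 and 69.95 in control libraries (chr1:91955101-91956100, exon). All resilient values at the Hdac4 site were below all control values, with a log2 change of -0.59 (authors' adjusted p = 0.00132). Kat6b held 91.1, 76.5, 80.4 and 83.8 normalised reads in resilient libraries, against 101, 130.4, 86.1 and 135 in control libraries (chr14:21538101-21539200, intron). At the Kat6b site, resilient library 27 lay among the control values, and the site had a log2 change of -0.45 (authors' adjusted p = 0.0018). By limma, the Kat6b log2 change, -0.42 over all libraries, was -0.33 without control library 34, where the unadjusted p no longer passed 0.05. Crebbp held 86, 73.2, 83.3 and 78 normalised reads in resilient libraries, against 132, 104, 105 and 89.9 in control libraries (chr16:4127801-4128800, exon) at a site over an inner start. No resilient library at this Crebbp site reached the control range, and the site had a log2 change of -0.43 (authors' adjusted p = 0.00328). By limma, the Crebbp log2 change, -0.41 over all libraries, was -0.31 without control library 25, where the unadjusted p no longer passed 0.05. Higher sites lay in Crebbp, Kat6a and Kat6b, 1 in each.

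In ELS_SbD mice Hdac9 had 3 higher sites and 1 lower. The lower site had the smallest adjusted p, with 20.6, 15.9 and 17.3 normalised reads in ELS_SbD libraries, against 40.5, 39.9 and 40.1 in Std_control libraries (chr12:34227301-34228600, intron). No ELS_SbD library at this Hdac9 site reached the Std_control range, and the site had a log2 change of -1.16 (authors' adjusted p = 0.00149). The ELS_SbD group lay below the IgG background there, at 0.53 times. Kat6b held 29.8, 48.5 and 51.8 normalised reads in ELS_SbD libraries, against 76.1, 80.7 and 65.4 in Std_control libraries (chr14:21620501-21621500, exon). At the Kat6b site every ELS_SbD library lay below every Std_control library, a log2 change of -0.77 (authors' adjusted p = 0.0123). Crebbp held 59.6, 61.6 and 44.2 normalised reads in ELS_SbD libraries, against 96.8, 87.5 and 82 in Std_control libraries (chr16:4164901-4165900, intron). All ELS_SbD values at the Crebbp site were below all Std_control values, with a log2 change of -0.69 (authors' adjusted p = 0.014).

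Hdac9 also held the only H3K27me2 site of the regulators, lower in susceptible mice, with 70.8, 32.4, 49.9 and 79.6 normalised reads in susceptible libraries, against 81.2, 89.3, 75.8 and 80.4 in control libraries (chr12:34114901-34115900, intron), where susceptible libraries are 50, 53, 56 and 59 and control libraries 49, 52, 55 and 58. Susceptible library 59 fell inside the control range at this Hdac9 site, which gave a log2 change of -0.49 (authors' adjusted p = 0.00197). By limma, the Hdac9 log2 change, -0.56 over all libraries, was -0.31 without susceptible library 53 and -0.51 without susceptible library 56, where the unadjusted p no longer passed 0.05. The limma log2 change was -0.56 ± 0.23 (SE, limma, unadjusted p = 0.025).

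**Figure D4:**
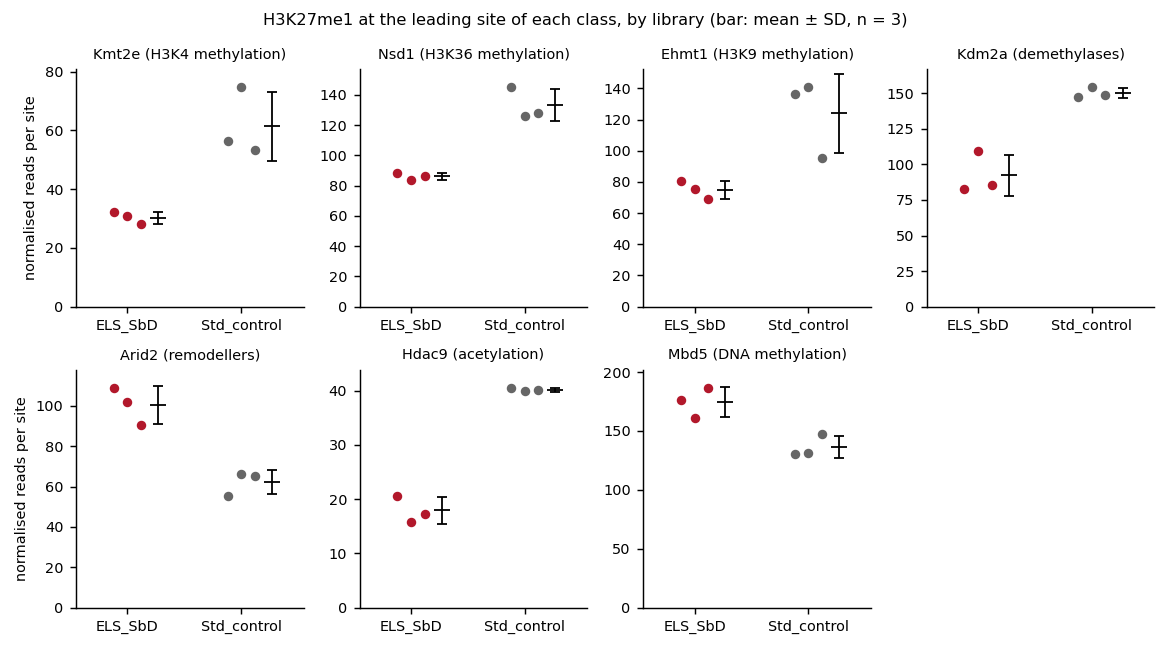
H3K27me1 in normalised reads per site at the leading site of each class with a site, for the 3 ELS_SbD libraries (red, left) and the 3 Std_control libraries (grey, right), with mean and SD. Arid2 and Mbd5 are higher in ELS_SbD libraries, the other 5 genes are lower, and no pair of groups overlaps.

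The DNA methylation class holds the Tet enzymes, which oxidise methylcytosine, the methyltransferase Dnmt3a, and Mbd5, a methyl-CpG-binding domain protein. In susceptible mice it was the class with most higher sites, 19 of 26, and all 19 were in Mbd5. They ran from 4.8 to 340.2 kb after the start of a gene of 375.9 kb, beside 2 lower sites. The first Mbd5 site held 314, 356, 321 and 335 normalised reads in susceptible libraries, against 223, 299.6, 224 and 269 in control libraries (chr2:49032501-49034700, intron). Each susceptible library at this Mbd5 site lay above the control range, and the site had a log2 change of 0.38 (authors' adjusted p = 2.3e-07). That was a mean of 331 ± 18.4 over 4 susceptible libraries, against 254 ± 37.4 over 4 control libraries (± SD), and a limma log2 change of 0.39 ± 0.12 (SE, limma, unadjusted p = 0.00151). Of the 19 higher Mbd5 sites, 9 had groups that did not overlap, and the groups did not overlap at either lower site. Over all called sites the share without overlap was 52.8%. Sites of 1 gene come from the same libraries and are not separate evidence. Tet3, a Tet enzyme present in neurons, had 4 lower sites, the first with 60.3, 64.1, 82.3 and 61.1 normalised reads in susceptible libraries, against 102, 74.9, 92.8 and 108 in control libraries (chr6:83445501-83446500, intron). This Tet3 site had overlapping groups through susceptible library 32, with a log2 change of -0.50 (authors' adjusted p = 0.000737). Tet2 had 1 lower site.

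Resilient mice had 6 lower and 2 higher sites in the class, with Mbd5 at 3 lower and 2 higher. Its first site held 297, 330.3, 311 and 317 normalised reads in resilient libraries, against 406, 409, 361 and 391 in control libraries (chr2:49091901-49094000, intron). At the Mbd5 site every resilient library lay below every control library, a log2 change of -0.32 (authors' adjusted p = 1.82e-05). An overlapping window was also lower in susceptible mice, at -0.32. The Mbd5 site that contains the inner promoter printed above held 91.1, 125, 119.6 and 114 normalised reads in resilient libraries, against 122, 115, 170.1 and 159 in control libraries (chr2:49244901-49246100, exon with UTR). At the Mbd5 site, resilient libraries 30 and 33 lay among the control values, and the site had a log2 change of -0.33 (authors' adjusted p = 0.0107). By limma, the Mbd5 log2 change, -0.32 over all libraries, was -0.22 without resilient library 27, -0.22 without control library 31 and -0.26 without control library 34, where the unadjusted p no longer passed 0.05. Tet2 had 2 lower sites and held 114, 88.7, 81.3 and 105 normalised reads in resilient libraries, against 117, 164, 121 and 118 in control libraries (chr3:133528701-133530100, intron). For Tet2 the resilient and control groups did not overlap at this site, and the resilient libraries were lower, with a log2 change of -0.42 (authors' adjusted p = 0.00178). By limma, the Tet2 log2 change, -0.41 over all libraries, was -0.30 without control library 28, where the unadjusted p no longer passed 0.05. Control library 28 stood apart there from the other control libraries, at 164 normalised reads.

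In ELS_SbD mice 4 of 5 sites of the class were higher. Mbd5 held 177, 161 and 187 normalised reads in ELS_SbD libraries, against 130.4, 131 and 147 in Std_control libraries (chr2:49184401-49185400, intron). For Mbd5 the ELS_SbD and Std_control groups did not overlap at this site, and the ELS_SbD libraries were higher, with a log2 change of 0.36 (authors' adjusted p = 3.96e-05). That window overlaps a susceptible Mbd5 site of the other cohort, with no library in common, whose log2 change was 0.29. The site that contains the first Mbd5 promoter held 82.6, 83 and 66.9 normalised reads in ELS_SbD libraries, against 46.4, 37.9 and 53.2 in Std_control libraries (chr2:48949201-48950200, exon with UTR). Each ELS_SbD library at this Mbd5 site lay above the Std_control range, and the site had a log2 change of 0.76 (authors' adjusted p = 0.0103). It also overlaps Orc4, a gene of the replication origin complex on the other strand, and both groups lay below the IgG background, at 0.44 and 0.22 times. Tet1 had 2 higher sites, the first with 72.2, 81.2 and 57.2 normalised reads in ELS_SbD libraries, against 44.5, 39.9 and 37.5 in Std_control libraries (chr10:62812101-62813100, exon with UTR). At the Tet1 site every ELS_SbD library lay above every Std_control library, a log2 change of 0.79 (authors' adjusted p = 0.00721).

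**Figure D5:**
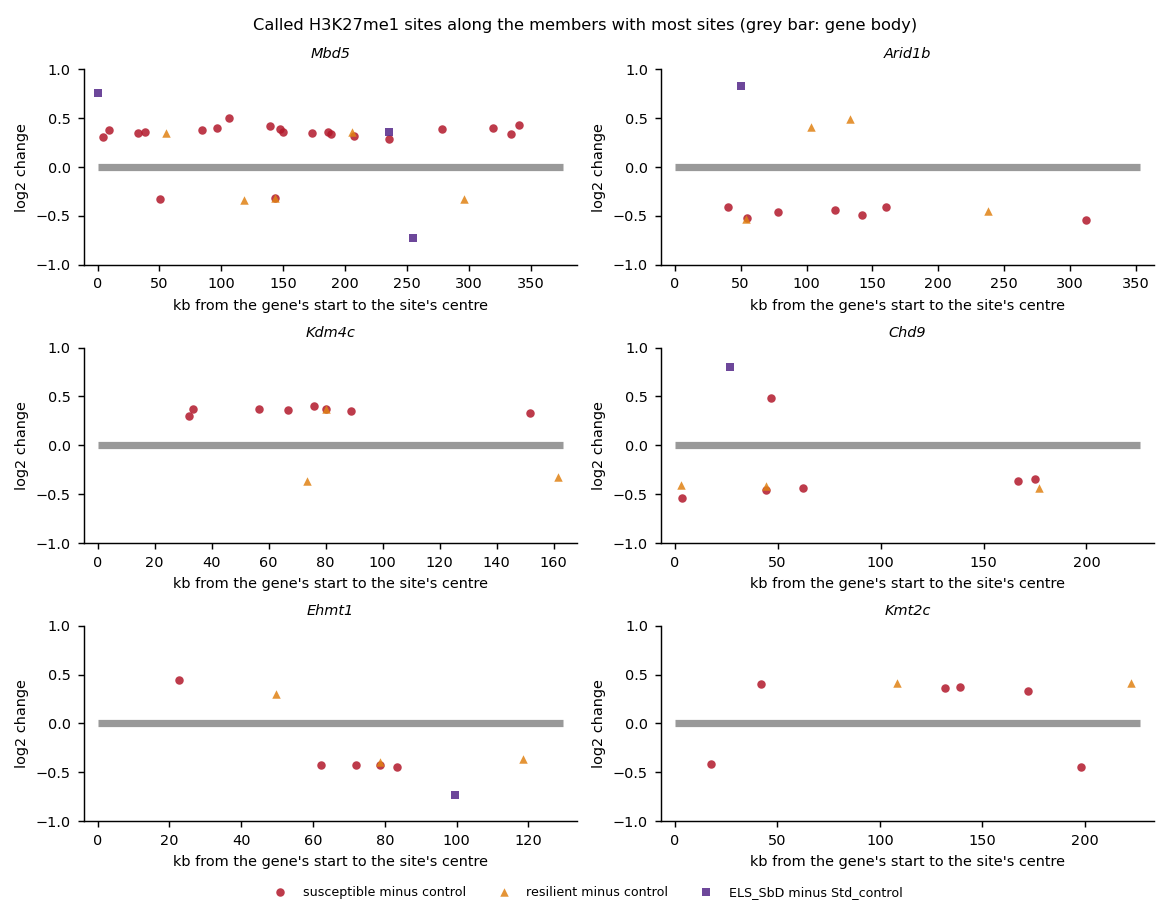
Log2 change at called H3K27me1 sites against distance in kb from the gene's start, for 6 regulators with many sites, with the gene body in grey and 1 marker per comparison. The 19 higher susceptible sites of Mbd5 and the 8 of Kdm4c run along the gene, the 7 susceptible sites of Arid1b are lower, and susceptible sites of Chd9, Ehmt1 and Kmt2c hold both directions.

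Some intervals were called in more than 1 comparison. The susceptible and resilient comparisons, which share their control libraries, had 14 of them, and their values are set side by side only. They lay in Dot1l, Chd8, Chd1, Ehmt1, Mbd5, Chd6, Tet2, Tet3, Setd1a, Kdm4c, Chd9 (2 intervals) and Smarca4 (2). Chd8, a chromodomain motor and autism risk gene, was at -0.45 in susceptible and -0.49 in resilient mice. Chd6 was at -0.48 and -0.43. Across cohorts, with no library in common, there were 2 intervals between susceptible and ELS_SbD mice (Kdm2a and Mbd5) and 1 between resilient and ELS_SbD mice (Setd5). How often sites of different comparisons overlap over all called sites was not computed. The counts therefore cannot be assigned to the regulators in particular, nor read as replication between cohorts.

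Partner genes of the same classes, such as complex subunits and further family members, were counted as well. Their list too was chosen with earlier results of these data known. The partner shares were not matched for gene length or base composition. In susceptible mice 8.5% of all genes under 20 kb had a site, against 57.2% of those of 200 kb and over. Of 149 autosomal partners, 58 had a site in susceptible mice (38.9%, against 20.9% of all genes), with 106 lower and 40 higher sites. That is 72.6% lower, against 49.7% of all called sites. By class, lower sites were 12 of 15 in the H3K4, 6 of 9 in the H3K36, 27 of 36 in the remodeller, 40 of 47 in the acetylation and 11 of 12 in the DNA methylation partners, but 1 of 6 in the H3K9, 4 of 10 in the H3K79 and 5 of 11 in the demethylase partners. Wdr5, a shared subunit of the H3K4 complexes, was lower at -0.38 (authors' adjusted p = 3.1e-07), and Smarcb1, a core BAF subunit with 4 lower sites, at -0.42 (authors' adjusted p = 4.5e-07). Dnmt1, the maintenance DNA methyltransferase, had 6 lower sites, the first at -0.51.

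In resilient mice 50 partners had a site (33.6%, against 15.5%), with 59 lower and 36 higher sites. That is 62.1% lower, against 48.3% of all called sites. Trrap, the scaffold of acetyltransferase complexes, had 5 lower sites, and Mllt3, a partner of Dot1l, 5 higher ones. In ELS_SbD mice 23 partners had a site (15.4%, against 13.6%), so the share of genes with a site lay near that of all genes. Of their 26 sites, 12 were lower and 14 higher (46.2% lower, against 33% of all called sites). Ncoa6, a subunit of the Kmt2c and Kmt2d complexes, was lower at -0.58 (authors' adjusted p = 5.38e-07).

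Markers of cell types were looked at as well. In susceptible mice 6 of 55 marker genes had a site (10.9%, against 20.9% of all genes), 9 sites higher and 7 lower: Foxp1, Foxp2 and Rarb of medium spiny neurons and Slc4a4 of astrocytes higher, Myrf of oligodendrocytes and Cx3cr1 of microglia lower. In resilient mice 5 of 55 had one (9.09%, against 15.5%), 8 sites higher and 4 lower: 7 higher and 2 lower in Foxp1, Foxp2 and Rarb, 1 of each in Slc4a4 and 1 lower in Cx3cr1. In ELS_SbD mice 11 of 55 had one (20%, against 13.6%), 18 sites higher and 5 lower. Among them were 7 of 20 medium spiny neuron markers (35%, beside 33.9% of the regulators), Foxp1, Foxp2, Meis2, Pde10a, Rarb, Rasd2 and Rgs9, with 14 higher and 4 lower sites. The others were Slc1a2 and Slc4a4 of astrocytes and Mbp of oligodendrocytes, higher, and P2ry12 of microglia, lower. No vascular marker had a site in these comparisons. H3K27me1 at a marker is not its expression, and the part of cell composition in the results was not tested.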

How the data were processed

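Nucleus accumbens was profiled by CUT&RUN with antibodies to H3K27me1 and H3K27me2 and with IgG, and 30 libraries from 8 of the study's 21 groups entered the comparisons. The submitters' processing notes name mm10, MACS2 2.2.6, SAMtools 1.10, Bowtie2 2.4.1, cutadapt 2.10 and Trim Galore 0.6.5, without their order. The authors made 5 comparison tables with diffReps 1.55.4 in 1000-bp windows moved by 100 bp, keeping windows with p under 0.0001, per the file headers. Each deposited table holds the normalised coverage signal of every library, the fold enrichment over IgG, the log2 change between groups, and p-values with their Benjamini-Hochberg adjustment, all computed by the authors. A negative binomial test stands in the rearing table's header and a G-test in the headers of the other 4.

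A site was called at the authors' adjusted p under 0.05 and assigned to each GENCODE M21 gene whose body or preceding 1000 bp it overlapped by at least 1 bp. From the deposited normalised reads, limma 3.58.1 (R 4.3.3) was fitted on log2(normalised reads + 1) over all deposited sites of a table. The fit had no covariate. On simulated data it recovered 199 of 200 changed sites for susceptible and 143 of 200 for ELS_SbD mice, with 6 false calls in each. The spread between simulated libraries was fixed in advance and not taken from these libraries. The simulated log2 change was 1 in either direction, larger than at any of the regulators' sites in chronic defeat mice. On these simulated data p was adjusted over the deposited sites only, not over all windows. The recovered shares therefore do not say how many changes of the size seen in chronic defeat mice would be found. Only windows below the authors' p limit were deposited, so other windows count as not passing where limma was adjusted over all windows. Tables and figures were made with matplotlib 3.10.9, scipy 1.17.1, numpy 2.4.6 and pandas 2.3.3 under Python 3.11.15. GC was that of the longest coding transcript.

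Values in every library are given, per table, for the site of smallest adjusted p of the 2 leading genes of each class and of each gene with sites in 3 tables, and for genes with a site within 1000 bp of a start. Members and lists were chosen with earlier results of these data known. Alternatives were a stricter adjusted p, other windows and overlaps, a read minimum, another pseudocount, limma, and leaving out each library.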

Additional observations from a re-analysis of the deposited data

Results flagged for a closer look

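Among 98 groups of 4 libraries tested at the named sites, 4 held 1 library far from the other 3 by Dixon's gap test at its 95% critical value, a distance that chance gives in about 5% of groups. At Kdm4b, resilient library 33 had 89.18 normalised reads, against 49.13 to 52.10 in the other resilient libraries. At Bptf, susceptible library 32 had 81.07 normalised reads, against 49.39 to 53.80 in the other susceptible libraries. Control library 28 stood apart at both remaining sites: it had 163.56 normalised reads at Tet2 in the resilient comparison, with the other control libraries at 116.93 to 121.03, and 200.47 at Smarca4 in the susceptible comparison, with the others at 256.00 to 261.14.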

How the results depend on the processing

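With limma adjusted over all windows the authors tested, the counts of higher and lower H3K27me1 sites were 0 and 0 in susceptible mice, 0 and 0 in resilient mice, and 11 and 19 in ELS_SbD mice, and the lower H3K27me2 count in susceptible mice was 0. With limma's unadjusted p under 0.05 and each library left out in turn, the counts of higher and lower sites ran from 33 to 43 and 56 to 67 in susceptible, 12 to 19 and 47 to 52 in resilient, and 12 to 12 and 19 to 19 in ELS_SbD mice. The 12 higher sites in resilient mice came without control library 28. The H3K27me2 count ran from 0 to 1, with 0 without library 53 or 56. At an adjusted p under 0.01 the higher and lower counts were 42 and 69, 18 and 50, and 8 and 13 in the same order of comparisons. At the 66 sites with values in every library, 18 changes of a left-out library took the unadjusted p past 0.05 and 0 turned the direction. The values stand beside those sites. All limma counts here come from sites selected on the same libraries and are no separate support. The causes were not tested. An edgeR fit on recovered reads was not run. No paired analysis was run because the labels name no pairing between libraries. The rearing libraries were shallower, and the part of depth in the counts was not tested.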
